A study of Gasterosteus aculeatus with 36 samples.

Results

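The transcriptomes of 18 hatched threespine stickleback (*Gasterosteus aculeatus*) were compared with those of 18 embryos, which together are all 36 fish of the series. The hatched fish were males and females at 0, 4 and 8 days after hatching (dah), and the embryos were males and females at stages 17, 20 and 23, with 3 fish of each sex at each of the 6 stages. By the study's methods, somites are forming in the youngest embryos, pigment is first seen at stage 20, and blood circulates over the whole yolk in the oldest. Every library was made from polyA RNA of a whole fish. According to the study's methods all fish were laboratory-reared descendants of wild-caught fish, the larvae were fed brine shrimp after hatching, and all libraries were pooled and sequenced together. The labels name no treatment or allele, and the source population of single fish is not given in the sources used here. The hatched fish were also the older fish, so hatching, age and feeding cannot be told apart.

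A hatched fish had between 13853605 and 33593221 reads assigned to genes, with 25426738 as the median, and an embryo between 8637205 and 52089185, with 22195344 as the median. The 10 most abundant genes took 6.91% to 12.5% of the reads of a hatched fish and 5.27% to 6.6% of those of an embryo. The first principal component held 69.1% of the variance, and no pair of libraries had counts that agreed within sampling noise. Levels are given in CPM, the counts scaled to a common library size, after TMM, which corrects for differences in library composition. CPM do not correct for transcript length, so levels are compared between fish and never between genes. For each gene the lowest, the median and the highest fish of a side are given in that order. Fold changes are hatched fish over embryos on the log2 scale with their standard error, from edgeR's quasi-likelihood test with sex as a covariate, and p-values were adjusted over all genes tested by the Benjamini-Hochberg method.

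A stickleback embryo builds its body axis segment by segment while most of its cells divide. In teleosts the retina, the fast swimming muscle, the gut and the nervous system become functional around hatching, when the larva must see, swim and take food. Proliferation genes, Notch signalling genes of the neural tube and RNA-binding proteins of the LIN28 family are known as features of early embryonic tissue.

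Of 22168 genes tested, 9365 (42.2%) were higher and 8338 (37.6%) were lower in hatched fish, 79.9% in all. A stricter description asks that every fish of a side lie above every fish of the other side. In 2977 genes (13.4% of those tested) all 18 hatched fish lay above all 18 embryos, and in 1755 genes (7.92%) all hatched fish lay below all embryos. Every one of these 4732 genes (21.3%) was also called by the test, which used the same fish, so the calls add no separate support. The median log2 fold change was 2.64 (quartiles 1.85 and 3.68) in the genes separated upward and -1.28 (quartiles -1.73 and -0.98) in those separated downward, against a median of 0.09 over all genes tested. With library size alone as the scaling, 2538 genes separated upward and 2332 downward, so that 52.1% of the separated genes were higher in hatched fish, against 62.9% with TMM. Whole fish were sequenced, so fewer cells of a type and less RNA per cell cannot be told apart.

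The distance between the sides was unequal. The gap was taken as the log2 ratio of the lowest fish of the higher side to the highest fish of the lower side, after adding 0.5 CPM to each. It exceeded 1 in 561 genes separated upward and in 12 separated downward. Asking for 2 times as much in plain CPM left 743 genes (3.35%) upward and 15 (0.0677%) downward. A large fold change did not require separation: 1348 genes called higher and 387 called lower had a log2 fold change of at least 2 in size and still overlapped.

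**Figure D1:**
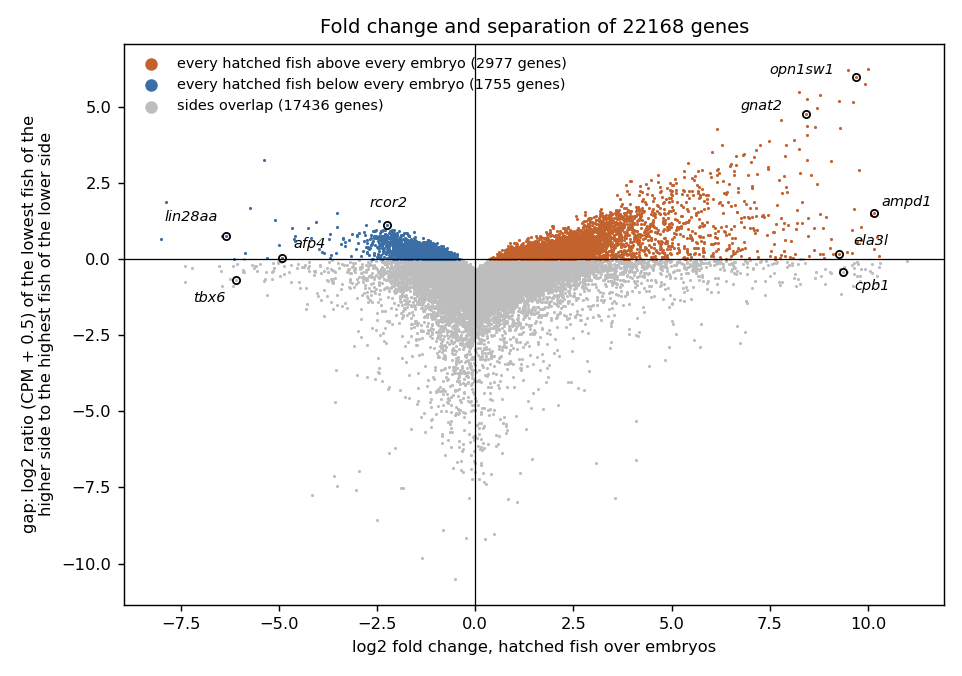
Each point is a gene, with its log2 fold change (hatched fish over embryos) on the x axis and its gap, the log2 ratio of the lowest fish of the higher side to the highest fish of the lower side, on the y axis. Points above 0 on the y axis are the 2977 genes separated upward and the 1755 separated downward, and *cpb1* and *tbx6* are genes with large fold changes whose sides overlap.

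Among named genes the widest gaps upward were mostly in genes of cone photoreceptors, the retinal cells of daylight vision. The ultraviolet-type opsin gene *opn1sw1* had 69.2, 275 and 387 CPM in hatched fish, against 0, 0.25 and 0.607 CPM in embryos (log2 fold change 9.71 ± 0.35, adjusted p = 3.24e-22). The lowest hatched fish thus stood far above the highest embryo, and the median was 0.352 CPM at stage 23 and 140.4 CPM at 0 dah. The blue-type opsin gene *opn1sw2* had 28.9, 201 and 262 CPM in hatched fish, against 0, 0.577 and 1.46 CPM in embryos (log2 fold change 8.13 ± 0.41, adjusted p = 4.62e-18). The alpha subunit of cone transducin, *gnat2*, which passes the signal on from the opsin, had 94.5, 467 and 629.8 CPM in hatched fish, against 0.086, 0.747 and 2.95 CPM in embryos (log2 fold change 8.41 ± 0.47, adjusted p = 5.56e-17). Embryos differed among themselves in *gnat2*, with stage medians of 0.488, 0.552 and 2.31 CPM at stages 17, 20 and 23 and 179, 521 and 548 CPM at 0, 4 and 8 dah.

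Further genes named for their wide gaps, among them subunits and shut-off proteins of the cone cascade, separated in the same way. The transducin beta subunit gene *gnb3b* reached 43.3, 184 and 247 CPM in hatched fish, against 0, 0.302 and 0.905 CPM in embryos, and the gamma subunit gene *gngt2b* 38.2, 152 and 229 CPM in hatched fish, against 0.0354, 0.226 and 0.561 CPM in embryos. The inhibitory subunit of the cone phosphodiesterase, *pde6hb*, had 47.5, 284 and 438 CPM in hatched fish, against 0, 0.343 and 0.841 CPM in embryos. No embryo came near a hatched fish in any of these 3 genes, with log2 fold changes of 8.71 ± 0.35, 9.27 ± 0.34 and 9.61 ± 0.41. Cone arrestins quench the activated opsin: *arr3a* had 219, 437 and 545 CPM in hatched fish, against 0, 0.807 and 4.4 CPM in embryos and *arr3b* 86.6, 181 and 236 CPM in hatched fish, against 0.0928, 0.365 and 3.17 CPM in embryos. The cone opsin kinase gene *grk7a* had 26.7, 118 and 145 CPM in hatched fish, against 0, 0.194 and 0.831 CPM in embryos. The guanylate kinase gene *guk1b* had 54.7, 113 and 146 CPM in hatched fish, against 0, 0.279 and 0.941 CPM in embryos. Log2 fold changes of these 4 genes ranged from 7.78 ± 0.42 for *arr3b* to 8.66 ± 0.36 for *grk7a*, and 0 dah fish were already at medians of 379 CPM in *arr3a* and 97.7 CPM in *guk1b*.

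Rod genes and genes of the outer segment, the stack of membranes that holds the opsin, also separated. Their gaps lay between 0.62 (*rom1a*) and 4.32 (*prph2a*) among those named. Cone genes had gaps such as 4.35 in *grk7a* and 5.98 in *opn1sw1*. The ranges overlapped, since *opn1sw2* and the cone channel gene *cnga3a* had smaller gaps than *prph2a*. With 0.5 CPM added, the gap of a gene near 0 CPM in embryos depends largely on the level of its lowest hatched fish. Gaps of different genes are therefore not a comparison of rods with cones. *prph2a*, which shapes the rim of the discs, had 14.8, 86.8 and 99.7 CPM in hatched fish, against 0, 0.0989 and 0.263 CPM in embryos (log2 fold change 9.30 ± 0.37, adjusted p = 4.88e-21). Its partner genes *rom1a* and *rom1b* had 0.412, 25.6 and 63.1 CPM and 0.824, 34.3 and 91.2 CPM in hatched fish, against 0, 0.00886 and 0.0941 CPM and 0, 0.0962 and 0.278 CPM in embryos. The rod transducin gene *gnat1* had 1.71, 112 and 284 CPM in hatched fish, against 0, 0.343 and 0.59 CPM in embryos (log2 fold change 8.63 ± 0.64, adjusted p = 4.8e-14). Its median was 14.8 CPM at 0 dah and 257 CPM at 8 dah, while *gnat2* had 179 CPM and 548 CPM at these ages. *rbp3*, the retinoid carrier between photoreceptors and pigment epithelium, had 6.22, 91.6 and 136 CPM in hatched fish, against 0, 0.0697 and 0.374 CPM in embryos (log2 fold change 9.78 ± 0.50, adjusted p = 6.28e-18).

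Over the whole list of phototransduction and photoreceptor genes, 54 of 57 tested members were higher (42.2% over all genes) and 1 was lower in hatched fish. Separated upward were 44 (13.4% over all genes), and the median log2 fold change was 6.42. The single lower member was the retinol dehydrogenase gene *rdh8a* (log2 fold change -0.53 ± 0.14, adjusted p = 0.00113). *grk7b* and a second transducin beta gene, *gnb3a*, were not called. In the comparison of stage 23 with 0 dah alone, the median of the list was 4.4.

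**Figure D2:**
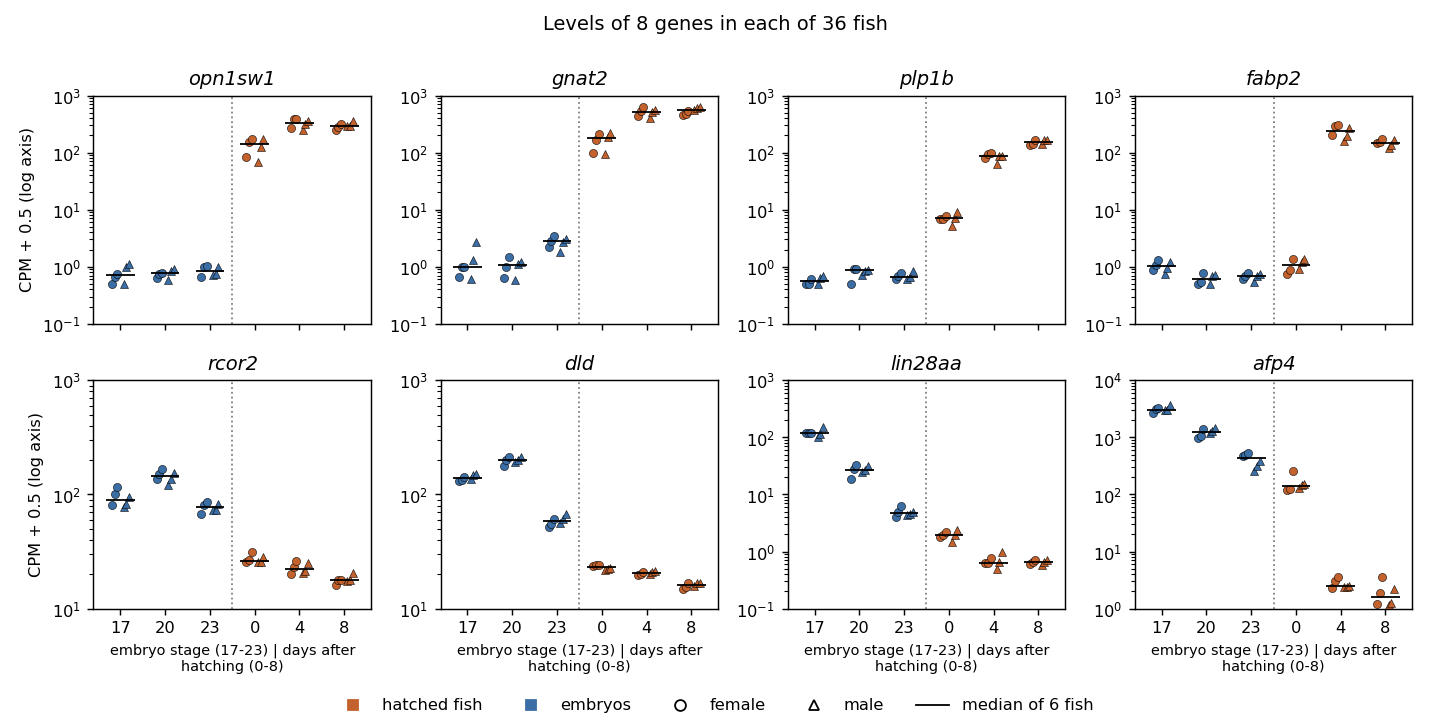
Each point is a fish, with its level as CPM + 0.5 on a log y axis and its embryo stage or days after hatching on the x axis; circles are females, triangles are males and the bar is the median of 6 fish. All hatched fish lie above all embryos in *opn1sw1*, *gnat2* and *plp1b* and below them in *rcor2*, *dld*, *lin28aa* and *afp4*. In *fabp2* the range of the 0 dah fish overlaps that of the embryos, and some 0 dah fish lie just above it.

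Fast skeletal muscle genes encode the contractile and calcium-handling proteins of the swimming muscle. In hatched fish 39 of 40 tested members were higher (42.2% over all genes) and none lower. Separated upward were 27 (13.4% over all genes), and the median log2 fold change was 2.82. *ampd1*, the muscle AMP deaminase, had the largest fold change among the genes named by the rule (log2 fold change 10.15 ± 0.81, adjusted p = 3.36e-13), with 2.65, 207 and 688 CPM in hatched fish, against 0, 0.221 and 0.607 CPM in embryos. Hatched fish spread widely in it, with a median of 8.24 CPM at 0 dah, 207 CPM at 4 dah and 596 CPM at 8 dah. The calsequestrin gene *casq1a*, whose product stores calcium in the sarcoplasmic reticulum, had 70.2, 403 and 775 CPM in hatched fish, against 0.117, 1.58 and 36.9 CPM in embryos (log2 fold change 6.33 ± 0.70, adjusted p = 4.81e-10). The Z-disc gene *myoz1a* had 3.83, 32.4 and 103 CPM in hatched fish, against 0, 0.0962 and 1.21 CPM in embryos (log2 fold change 6.96 ± 0.62, adjusted p = 4.59e-12). Much of the rise of the list lay before hatching: its median level, centred on the mean of the 6 stages, was -4.72 at stage 17, 0.04 at stage 23 and 1.42 at 0 dah on the log2 scale. The myosin chaperone gene *unc45b* was the member that was not called (log2 fold change 0.28 ± 0.26, adjusted p = 0.337).

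All 77 tested subunits of mitochondrial oxidative phosphorylation were higher in hatched fish (42.2% over all genes), 57 of them separated upward (13.4% over all genes). They were higher by little: the median log2 fold change was 0.82. Most of the list therefore separated through small and even differences. *uqcrh*, a complex III subunit chosen as an example after its values were seen, had 75.1, 102 and 122 CPM in hatched fish, against 29.2, 38.7 and 49.9 CPM in embryos (log2 fold change 1.29 ± 0.07, adjusted p = 3.92e-17). The members with the largest fold changes, *cox7a1* and *cox6a2*, are known in mammals as muscle forms. *cox7a1* had 2.59, 18.8 and 40.0 CPM in hatched fish, against 0, 0.055 and 0.815 CPM in embryos (log2 fold change 6.78 ± 0.50, adjusted p = 4.36e-14), and *cox6a2*, the muscle form of that cytochrome oxidase subunit, had 1.53, 14.3 and 54.6 CPM in hatched fish, against 0, 0.206 and 0.726 CPM in embryos (log2 fold change 6.11 ± 0.60, adjusted p = 3.74e-11). *ndufa4b* had 121, 161 and 186 CPM in hatched fish, against 0.111, 8.21 and 36.1 CPM in embryos (log2 fold change 3.71 ± 0.53, adjusted p = 1.01e-07), with a median of 33.6 CPM at stage 23 and 158 CPM at 0 dah.

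Synapse and neurotransmission genes were higher in all 42 tested members (42.2% over all genes). In 31 the sides were separated upward (13.4% over all genes), and the median log2 fold change was 2.61. *slc17a7a*, a vesicular glutamate transporter gene, had 9.25, 33.2 and 44.8 CPM in hatched fish, against 0, 0.189 and 1.19 CPM in embryos (log2 fold change 6.16 ± 0.41, adjusted p = 4.51e-15). The vesicle fusion gene *snap25a* had 69, 171 and 227 CPM in hatched fish, against 0.0554, 1.51 and 18.9 CPM in embryos (log2 fold change 4.78 ± 0.58, adjusted p = 4.04e-09). The embryos were far apart in *snap25a*, with stage medians of 0.248, 1.51 and 14.5 CPM at stages 17, 20 and 23 and 90.02, 171 and 202 CPM at 0, 4 and 8 dah. *epd*, which encodes ependymin, a glycoprotein of the fluid around the fish brain, was the gene outside the photoreceptor list with the widest gap among named genes, at 63.5, 281 and 412 CPM in hatched fish, against 0.086, 0.535 and 1.02 CPM in embryos (log2 fold change 8.78 ± 0.36, adjusted p = 1.76e-20).

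Myelin and oligodendrocyte genes did not move as a block. Of 23 tested members 13 were higher (42.2% over all genes) and 4 lower (37.6%) in hatched fish, and the median log2 fold change was 1.08. Of the list 8 were separated upward and 2 downward, against 13.4% and 7.92% of all genes tested. The genes for proteins of the myelin sheath itself had large folds. The proteolipid gene *plp1b* had 4.59, 85.6 and 168 CPM in hatched fish, against 0, 0.162 and 0.417 CPM in embryos (log2 fold change 8.71 ± 0.62, adjusted p = 2.04e-14), the myelin basic protein gene *mbpa* had 10.4, 131 and 256 CPM in hatched fish, against 0.0941, 0.388 and 2.93 CPM in embryos (log2 fold change 7.14 ± 0.58, adjusted p = 4.41e-13), and the claudin gene *cldnk*, expressed in zebrafish myelinating glia, had 7.83, 36.1 and 55.4 CPM in hatched fish, against 0.0633, 0.378 and 0.903 CPM in embryos (log2 fold change 6.30 ± 0.36, adjusted p = 8.45e-17). In all 3 the 0 dah fish were low among the hatched fish, with *plp1b* medians of 6.55, 85.6 and 152 CPM at 0, 4 and 8 dah. The members that were lower include the progenitor transcription factor genes *olig2* (log2 fold change -0.96 ± 0.20, adjusted p = 5.6e-05), *nkx2.2a* and *sox10*. The second proteolipid gene, *plp1a*, was separated downward, opposite to *plp1b*, with 13.7, 20.48 and 22.4 CPM in hatched fish, against 26.9, 50.7 and 222 CPM in embryos (log2 fold change -2.23 ± 0.29, adjusted p = 2.02e-08).

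Pancreatic digestive enzyme genes had large fold changes, with fish at 0 dah near the levels of stage 23 embryos. The 5 pancreatic digestive enzyme genes tested were all higher (42.2% over all genes), with a median log2 fold change of 9.37. None of them separated (13.4% upward over all genes). The carboxypeptidase gene *cpb1* had 0.396, 108 and 669 CPM in hatched fish, against 0, 0.262 and 0.701 CPM in embryos (log2 fold change 9.37 ± 1.01, adjusted p = 2.96e-10). Its stage medians were 0.115, 0.182 and 0.369 CPM at stages 17, 20 and 23 and 0.581, 108 and 451 CPM at 0, 4 and 8 dah. *cpa4* and the phospholipase gene *pla2g1b* followed the same course, with medians of 0.344 CPM and 0.108 CPM at 0 dah and of 354 CPM and 54 CPM at 8 dah. The amylase gene *amy2a* differed in falling first, with medians of 46.9, 9.89 and 2.99 CPM at stages 17, 20 and 23. It had 2.42, 386 and 670 CPM at 0, 4 and 8 dah. Between stage 23 and 0 dah alone, *cpa4* (0.94) and *cpb1* (0.56) no longer passed the test, none of the 4 members then tested was called, and the list had a median log2 fold change of 0.38. The elastase gene *ela3l* was separated, but only just, with 1.07, 247 and 587 CPM in hatched fish, against 0, 0.247 and 0.904 CPM in embryos (log2 fold change 9.25 ± 0.89, adjusted p = 2.08e-11).

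The intestinal list was higher in 16 of 23 tested members (42.2% over all genes) and lower in 1 (37.6%). Separated upward were 6 (against 13.4% of all genes tested), and the median log2 fold change was 2.78. Between stage 23 and 0 dah alone 16 of the 23 were again higher and 8 were separated upward. Over all 21386 genes then tested, 6675 were higher and 4120 separated upward. *fabp2*, the fatty acid carrier of enterocytes, had 0.244, 148 and 307 CPM in hatched fish, against 0, 0.222 and 0.823 CPM in embryos (log2 fold change 8.92 ± 0.94, adjusted p = 1.65e-10) and overlapped, since its median was 0.551 CPM at 0 dah and 239.5 CPM at 4 dah. The aminopeptidase gene *enpep* was separated, with 11.8, 68.1 and 139 CPM in hatched fish, against 0, 0.759 and 3.3 CPM in embryos (log2 fold change 5.57 ± 0.45, adjusted p = 4.74e-13). The digestive genes fixed as marks of hatched larvae (*cpa5*, *cpb1*, *amy2a* and *fabp2*, the 4 of the set that were tested) thus set 4 and 8 dah fish apart rather than all hatched fish. Likewise *tbx6*, a mark of the embryonic side, had a median of 31.1 CPM at stage 17 and 0.0511 CPM at stage 23, against 0.192 CPM at 0 dah. The mark *her7* had 10.3 CPM and 0.39 CPM, against 0.806 CPM at 0 dah. The mark *tbxta* differed, with 38.5 CPM and 9.7 CPM, against 6.44 CPM at 0 dah, although its sides overlapped.

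Liver plasma protein genes were higher in 25 of 35 tested members and lower in 3, against 42.2% and 37.6% of all genes tested. Separated upward were 16 (13.4% over all genes), and the median log2 fold change was 1.95. *rbp4l*, a gene like that of the plasma retinol-binding protein, had 9.82, 135 and 228 CPM in hatched fish, against 0, 0.257 and 0.948 CPM in embryos (log2 fold change 8.27 ± 0.45, adjusted p = 1.99e-17). The tissue its reads came from cannot be told in whole fish, so it need not stand for the liver. *c9*, a component of the complement pore, had 18.6, 87.3 and 151 CPM in hatched fish, against 0, 0.593 and 7.8 CPM in embryos (log2 fold change 5.28 ± 0.57, adjusted p = 3.42e-10), and the vitronectin gene *vtnb* had 27.3, 100.05 and 157 CPM in hatched fish, against 0.156, 2.01 and 13.8 CPM in embryos (log2 fold change 4.37 ± 0.53, adjusted p = 3.69e-09). Unlike the pancreatic genes, *c9* and *vtnb* were above every embryo already at 0 dah. The same held for *rbp4l*, with a median of 39.6 CPM at 0 dah. The transferrin gene *tfa* was the member with the largest fall, at 394, 527 and 1438 CPM in hatched fish, against 1049, 1819 and 3538 CPM in embryos (log2 fold change -1.66 ± 0.19, adjusted p = 1.76e-09), and its sides overlapped.

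Bone mineralization and remodelling genes were higher in 27 of 30 tested members (42.2% over all genes) with none lower. Separated upward were 7 (against 13.4% of all genes tested), and the median log2 fold change was 2.21. The osteopontin gene *spp1*, a matrix protein of bone, had 4.12, 83.9 and 267 CPM in hatched fish, against 0, 0.155 and 0.767 CPM in embryos (log2 fold change 8.33 ± 0.71, adjusted p = 1.39e-12). *bglapl*, an osteocalcin-like gene, had 0.0337, 13 and 103 CPM in hatched fish, against 0, 0.0806 and 0.492 CPM in embryos (log2 fold change 8.16 ± 1.003, adjusted p = 5.34e-09), with a median of 0.11 CPM at 0 dah and 80.0 CPM at 8 dah. *scpp9*, of the family of secretory calcium-binding phosphoproteins, had 2634 reads over the hatched fish and 1 read over the 18 embryos, so its fold is not given. Its median was also 0 CPM at 0 dah.

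Ion transport genes of osmoregulation were higher in 16 of 24 tested members and lower in 3, against 42.2% and 37.6% of all genes tested. Separated upward were 9 (13.4% over all genes), and the median log2 fold change was 0.92. The bicarbonate cotransporter gene *slc4a4a* had 89, 169 and 194 CPM in hatched fish, against 0.514, 6.84 and 18.4 CPM in embryos (log2 fold change 4.19 ± 0.42, adjusted p = 5.99e-11). The water and glycerol channel gene *aqp3a* had 11.8, 57.3 and 70.1 CPM in hatched fish, against 0, 0.388 and 6.25 CPM in embryos (log2 fold change 4.64 ± 0.58, adjusted p = 7.29e-09), and the chloride channel gene *clcn2a* had 3.39, 5.84 and 8.32 CPM in hatched fish, against 0, 0.112 and 1.08 CPM in embryos (log2 fold change 3.99 ± 0.44, adjusted p = 4.35e-10). The chloride channel gene *cftr* was not called (log2 fold change -0.01 ± 0.16, adjusted p = 0.946). *hsd11b2*, whose product inactivates cortisol, fell most, at 2.46, 3.86 and 11 CPM in hatched fish, against 8.32, 62.2 and 104 CPM in embryos (log2 fold change -3.59 ± 0.34, adjusted p = 2.21e-11).

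Lymphocyte and thymus genes were higher in 21 of 30 tested members (42.2% over all genes) and lower in 5 (37.6%). Their median log2 fold change was 1.72. Of the list 3 were separated upward and 2 downward, against 13.4% and 7.92% of all genes tested. Separation was thus no more frequent than over all genes. *rag1*, which cuts antigen receptor genes in developing lymphocytes, had 1.4, 7.8 and 21.8 CPM in hatched fish, against 0, 0.207 and 0.625 CPM in embryos (log2 fold change 5.29 ± 0.41, adjusted p = 1.11e-13). The cytokine receptor gene *il7r* had 0.36, 1.99 and 4.07 CPM in hatched fish, against 0, 0 and 0.0886 CPM in embryos (log2 fold change 5.64 ± 0.47, adjusted p = 8.73e-13). Its fold rested on 16 reads over the embryos and is loosely set. *cd8a*, the coreceptor gene of cytotoxic T cells, had 122 reads over the hatched fish and 1 over the embryos, which is too few for a fold. The members separated downward include *tox* (-1.54 ± 0.08), a chromatin protein gene of lymphocytes in mammals.

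Innate immune genes split: 18 of 32 tested members were higher and 6 lower in hatched fish, with a median log2 fold change of 0.72. Over all genes tested 42.2% were higher and 37.6% lower. Of the list 3 were separated upward and none downward, against 13.4% and 7.92% of all genes tested. *cd74a*, the invariant chain of antigen presentation, had 1.62, 17.32 and 47.1 CPM in hatched fish, against 0.156, 0.495 and 0.978 CPM in embryos (log2 fold change 5.01 ± 0.45, adjusted p = 5.32e-12). The lysozyme gene *lyz* had 0.701, 14.9 and 87.7 CPM in hatched fish, against 0, 0.996 and 3.05 CPM in embryos (log2 fold change 4.29 ± 0.59, adjusted p = 5.11e-08), and *lect2.1* had 3.57, 36.1 and 94.9 CPM in hatched fish, against 0.831, 1.77 and 3.62 CPM in embryos (log2 fold change 4.25 ± 0.43, adjusted p = 6.52e-11). Both overlapped, through 0 dah fish at medians of 1.88 CPM and 4.25 CPM. The myeloperoxidase gene *mpx* of neutrophils fell, at 23.7, 49.2 and 145 CPM in hatched fish, against 107, 337 and 1060.2 CPM in embryos (log2 fold change -3.17 ± 0.33, adjusted p = 1.31e-10), and the other members that fell include the NADPH oxidase genes *ncf1*, *cybb* and *cyba* and the metalloproteinase gene *mmp25b*.

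Among genes with a name, *rcor2* and *dld* had the widest gaps on the embryonic side, at 1.12 and 1.11. *rcor2*, a corepressor that works with histone demethylation, had 15.6, 21.8 and 30.7 CPM in hatched fish, against 67.4, 90.2 and 167 CPM in embryos (log2 fold change -2.24 ± 0.13, adjusted p = 6.89e-17). The Notch ligand gene *dld* had 14.4, 20.01 and 23.7 CPM in hatched fish, against 51.8, 139 and 215 CPM in embryos (log2 fold change -2.77 ± 0.19, adjusted p = 1e-14). The Hairy-related repressor gene *her12* had 2.87, 5.05 and 8.48 CPM in hatched fish, against 17, 25.5 and 55.5 CPM in embryos (log2 fold change -2.53 ± 0.18, adjusted p = 1.28e-14). All 3 were highest at stage 20, with medians of 144, 200.03 and 47.8 CPM, and all 3 had fallen by stage 23. The sides nonetheless stayed apart, and in *dld* the highest hatched fish had 23.7 CPM, against 51.8 CPM in the lowest embryo.

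Of 29 tested genes of neural progenitors and early neurogenesis, 26 were lower (37.6% over all genes) and 2 higher (42.2%) in hatched fish. In this list 13 were separated downward (7.92% over all genes) and 1 upward (13.4%), with a median log2 fold change of -1.48. The eye and forebrain regulator gene *pax6a* had 1.29, 2.41 and 3.54 CPM in hatched fish, against 3.56, 7.29 and 42.9 CPM in embryos (log2 fold change -2.62 ± 0.33, adjusted p = 7.73e-09). The proneural gene *neurog1* had 0.429, 0.778 and 2.04 CPM in hatched fish, against 1.88, 4.52 and 15.09 CPM in embryos and overlapped (log2 fold change -2.73 ± 0.28, adjusted p = 8.56e-11). The exceptions were *neurod1*, a gene of differentiating neurons that was separated upward with 41.7, 51.9 and 68.4 CPM in hatched fish, against 4.81, 20.9 and 33 CPM in embryos (log2 fold change 1.49 ± 0.21, adjusted p = 5.72e-08), and *fabp7a* of radial glia (log2 fold change 1.11 ± 0.19, adjusted p = 3.01e-06). These exceptions were named after their values were seen.

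Cell cycle and DNA replication genes were lower in hatched fish in 77 of 78 tested members (37.6% over all genes). Separated downward were 65 (7.92% over all genes), and the median log2 fold change was -2.01. Log2 fold changes of the lower members lay between -2.67 ± 0.31 (*cdc6*) and -0.67 ± 0.10 (*dhfr*). The mitotic cyclin gene *ccnb1* had 11.7, 21 and 31.8 CPM in hatched fish, against 51.8, 136 and 222 CPM in embryos (log2 fold change -2.59 ± 0.21, adjusted p = 5.62e-13), and the separase gene *espl1* had 11.4, 17.25 and 21.1 CPM in hatched fish, against 40.5, 105 and 146 CPM in embryos (log2 fold change -2.54 ± 0.18, adjusted p = 1.5e-14). The cytokinesis genes *anln* and *ect2* had 20.64, 32 and 39.8 CPM and 8.88, 13.7 and 20.3 CPM in hatched fish, against 78.6, 155 and 191 CPM and 40.2, 80.3 and 99.9 CPM in embryos. The condensin gene *smc4* had 54.2, 65.2 and 82.5 CPM in hatched fish, against 159, 307 and 395 CPM in embryos (log2 fold change -2.05 ± 0.11, adjusted p = 4.77e-17).

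Several members of the cell cycle list had sides that met. The replication licensing gene *cdc6* had 0.298, 1.15 and 2.24 CPM in hatched fish, against 1.98, 8.36 and 16.8 CPM in embryos (log2 fold change -2.67 ± 0.31, adjusted p = 2.19e-09), and the cyclin gene *ccne1* had 2.17, 2.82 and 5.36 CPM in hatched fish, against 4.58, 15.8 and 43.1 CPM in embryos (log2 fold change -2.58 ± 0.27, adjusted p = 1.07e-10). The single member that was higher was *birc5b*, a survivin gene present at 0.213, 0.454 and 0.895 CPM in hatched fish, against 0, 0.113 and 0.561 CPM in embryos (log2 fold change 1.501 ± 0.30, adjusted p = 3.67e-05), while *birc5a* was separated downward. Genes outside the list with some of the widest gaps among named genes include the next 3: *arhgap19*, a GTPase-activating protein gene, had 7.15, 12 and 15.7 CPM in hatched fish, against 30.9, 67.8 and 81.7 CPM in embryos. The DNA helicase gene *recql4* had 4.82, 7.13 and 9.88 CPM in hatched fish, against 19.2, 28.4 and 44.7 CPM in embryos and *skida1* 6.75, 11.7 and 13.9 CPM in hatched fish, against 26.9, 52.8 and 67.5 CPM in embryos. Log2 fold changes of these 3 genes were -2.30 ± 0.15 for *arhgap19*, -2.11 ± 0.12 for *recql4* and -2.17 ± 0.13 for *skida1*.

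The LIN28 pathway controls the maturation of let-7 microRNAs and the growth of early embryonic cells. All 8 tested genes of this list were lower in hatched fish (37.6% over all genes). Separated downward were 5 (7.92% over all genes), and the median log2 fold change was -2.26. *lin28aa* had 0, 0.212 and 1.87 CPM in hatched fish, against 3.53, 26.8 and 151 CPM in embryos (log2 fold change -6.35 ± 0.68, adjusted p = 2.26e-10). Its medians fell through 4 dah, being 117, 26.8 and 4.19 CPM at stages 17, 20 and 23 and 1.43, 0.138 and 0.161 CPM at 0, 4 and 8 dah. Its paralog *lin28b* had 12.2, 18.9 and 46.4 CPM in hatched fish, against 72.2, 171 and 245 CPM in embryos (log2 fold change -2.76 ± 0.21, adjusted p = 9.9e-14), and *trim71*, a ubiquitin ligase gene that is itself a let-7 target, had 8.33, 12.5 and 19.7 CPM in hatched fish, against 28.1, 126 and 312 CPM in embryos (log2 fold change -3.42 ± 0.31, adjusted p = 7.61e-12). The mRNA-binding protein genes *igf2bp1* (-2.47 ± 0.20) and *igf2bp3* (-2.05 ± 0.16) were the other separated members. The pluripotency-associated zinc finger gene *sall4* showed a like profile, with 2.75, 4.87 and 7.48 CPM in hatched fish, against 15.8, 57.8 and 311 CPM in embryos (log2 fold change -4.66 ± 0.43, adjusted p = 9.95e-12) and stage medians of 286, 57.8 and 22.5 CPM at stages 17, 20 and 23 and 6.01, 5.25 and 3.29 CPM at 0, 4 and 8 dah.

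The largest falls by fold were in genes high at stage 17. *prtga*, an immunoglobulin superfamily receptor gene of early embryonic epithelia, had 1.46, 2.98 and 10.4 CPM in hatched fish, against 18.1, 105 and 1105 CPM in embryos (log2 fold change -6.46 ± 0.69, adjusted p = 2.22e-10), with a median of 1010.3 CPM at stage 17 and 21.4 CPM at stage 23. The orphan nuclear receptor gene *nr6a1a* had 4.37, 7.02 and 19 CPM in hatched fish, against 32.3, 96.1 and 676 CPM in embryos (log2 fold change -4.58 ± 0.48, adjusted p = 1.4e-10). The laminin gene *lama1*, of the embryonic basement membrane, had 2.94, 4.68 and 7.66 CPM in hatched fish, against 11.9, 78.3 and 333 CPM in embryos (log2 fold change -4.59 ± 0.44, adjusted p = 1.94e-11). In these genes most of the fall lay within the embryonic stages, and the stage 23 medians were 39.2 CPM in *nr6a1a* and 14.6 CPM in *lama1*. *greb1* had 0.505, 1.68 and 2.79 CPM in hatched fish, against 3.28, 41.8 and 294 CPM in embryos (log2 fold change -5.86 ± 0.63, adjusted p = 2.68e-10), with a median of 4.73 CPM at stage 23.

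A pair of genes fell mainly after stage 23 on the log2 scale. *afp4*, named for a type IV antifreeze protein, had 0.668, 2.26 and 253 CPM in hatched fish, against 257, 1234 and 3661 CPM in embryos (log2 fold change -4.91 ± 0.86, adjusted p = 4.03e-06), so the sides were only just separate. Its stage medians were 3036, 1234 and 431 CPM at stages 17, 20 and 23 and 138, 1.95 and 1.08 CPM at 0, 4 and 8 dah. The transmembrane serine protease gene *tmprss9* had 1.24, 2.24 and 79 CPM in hatched fish, against 126, 293 and 524 CPM in embryos (log2 fold change -4.60 ± 0.59, adjusted p = 1.29e-08), with medians of 293 CPM at stage 23, 31.1 CPM at 0 dah and 2.24 CPM at 4 dah.

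Hox genes specify position along the body axis, those of low number toward the head. Of 38 tested members 23 were lower (37.6% over all genes) and 2 higher (42.2%) in hatched fish. Separated downward were 16 (7.92% over all genes) and upward none (13.4%), and the median log2 fold change was -0.70. The members with the largest falls were all of group 1: *hoxb1a* (log2 fold change -5.005 ± 0.47, adjusted p = 1.51e-11) had 0, 0.161 and 0.886 CPM in hatched fish, against 1.42, 6.82 and 19.2 CPM in embryos. *hoxb1b* had 0.505, 0.814 and 1.58 CPM in hatched fish, against 2.83, 9.38 and 41.5 CPM in embryos (log2 fold change -4.18 ± 0.40, adjusted p = 1.76e-11), and *hoxa1a* had 0, 0.154 and 0.353 CPM in hatched fish, against 0.489, 2.21 and 5.39 CPM in embryos (log2 fold change -3.85 ± 0.41, adjusted p = 2.91e-10). The higher members were of groups 11 and 13, *hoxc11a* (1.22 ± 0.34) and *hoxc13a* (1.06 ± 0.30), and of the other tested members numbered 10 to 13 none was called. With the 12 groups of stage and sex as the model 9 Hox genes were higher and 24 lower. These last members were named after their values were seen.

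Somite segmentation genes were lower in all 10 tested members (37.6% over all genes), with a median log2 fold change of -2.44. Separated downward were 3 (7.92% over all genes): *dld*, *dlc* and *lfng*, all of the Notch pathway. The T-box gene *tbx16*, of presomitic mesoderm, had 0, 0.132 and 0.353 CPM in hatched fish, against 0.0376, 1.41 and 35.3 CPM in embryos (log2 fold change -6.24 ± 0.90, adjusted p = 1.24e-07). *tbx6* had 0, 0.152 and 0.335 CPM in hatched fish, against 0.0177, 1.27 and 44.9 CPM in embryos (log2 fold change -6.08 ± 0.90, adjusted p = 1.93e-07), and *mespaa*, which sets segment borders, had 0, 0.0152 and 0.0879 CPM in hatched fish, against 0, 0.315 and 7.24 CPM in embryos (log2 fold change -5.60 ± 0.89, adjusted p = 8.52e-07). Their sides overlapped because stage 23 embryos had medians of 0.112 CPM, 0.0511 CPM and 0 CPM, no higher than 0 dah fish at 0.156 CPM, 0.192 CPM and 0 CPM. With the 12 groups of stage and sex as the model, *mespaa* was no longer called. Its fold rested on 13 reads over the hatched fish.

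Splicing factor, proteasome and ribosomal protein genes were mostly lower in hatched fish, with unequal sizes. Splicing factor genes were lower in 52 of 57 tested members (37.6% over all genes) and higher in 2 (42.2%). Separated downward were 22 (7.92% over all genes). The median log2 fold change was -1.24, against -0.84 over all genes called lower. *prpf8*, the core protein of the spliceosome, had 230.3, 272 and 304 CPM in hatched fish, against 378, 939 and 1711 CPM in embryos (log2 fold change -1.88 ± 0.17, adjusted p = 8.9e-12). *sf3b4* had 25.4, 29.9 and 45.6 CPM in hatched fish, against 60.3, 135 and 189.8 CPM in embryos (log2 fold change -1.88 ± 0.16, adjusted p = 1.55e-12) and *sf3b3* 70.7, 94.8 and 138 CPM in hatched fish, against 167, 319.7 and 606 CPM in embryos (log2 fold change -1.85 ± 0.18, adjusted p = 1.78e-11), both subunits of the complex that finds the branch point.

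Proteasome genes were lower in 31 of 35 tested members (37.6% over all genes) and higher in 2 (42.2%). Separated downward were 5 (7.92% over all genes), and the median log2 fold change was -0.65. The regulatory subunit gene *psmd11b* had 30.1, 36 and 55.7 CPM in hatched fish, against 65.4, 114 and 138 CPM in embryos (log2 fold change -1.36 ± 0.12, adjusted p = 2.69e-12). The higher members are alternative catalytic subunits: *psmb10*, of the immunoproteasome, had 0.252, 3.08 and 9.55 CPM in hatched fish, against 0, 0.0325 and 0.282 CPM in embryos (log2 fold change 5.76 ± 0.58, adjusted p = 7.19e-11), and *psmb11a*, whose mammalian ortholog is thymic, had 0, 0.229 and 0.811 CPM in hatched fish, against 0, 0 and 0.127 CPM in embryos (log2 fold change 3.94 ± 0.59, adjusted p = 2.68e-07). Both overlapped and rested on 32 and 6 reads over the 18 embryos.

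Cytosolic ribosomal protein genes were lower in 66 of 76 tested members (37.6% over all genes) with none higher. None was separated (7.92% downward over all genes), and the median log2 fold change was only -0.35. *rpl3* had 1274, 1569 and 1773 CPM in hatched fish, against 1745, 3158 and 3819.9 CPM in embryos (log2 fold change -0.88 ± 0.10, adjusted p = 2.29e-09). *rpl5a* was another of the larger falls, at -0.93 ± 0.14. *rpl7l1*, at -1.52 ± 0.20, entered the list through its symbol, which names a ribosomal protein-like gene. It may not be a ribosomal protein itself. Between stage 23 and 0 dah alone the median of the list was 0.05 and *rpl5a* (-0.12) did not pass the test, so the direction of this list depended on the earlier embryos and the later larvae. Under the other scalings the median lay between -0.37 and -0.30.

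**Figure D3:**
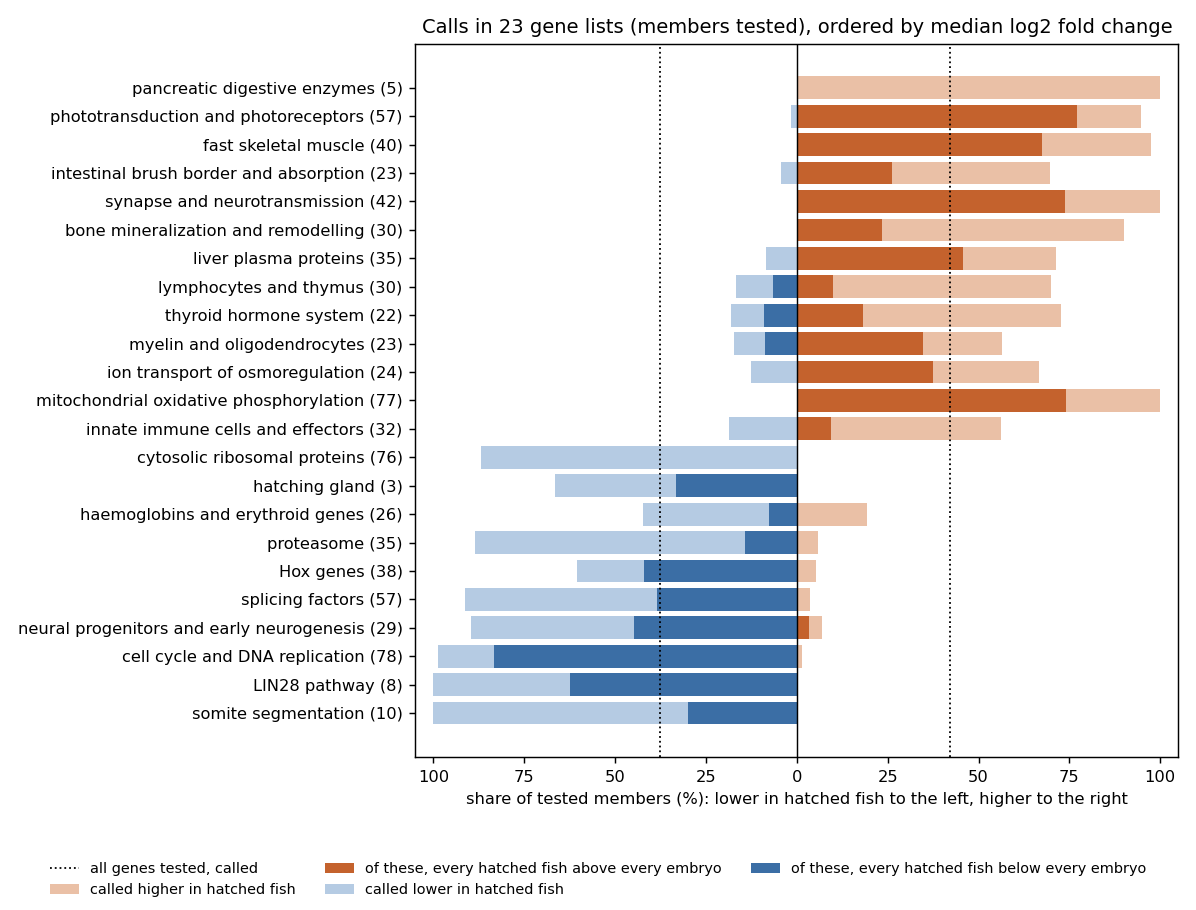
Bars give, for each of 23 gene lists with the number of tested members in brackets, the percent of members called lower (left) or called higher (right) in hatched fish, with the separated members in the darker colour. Dotted lines mark the same share over all genes tested, 37.6% lower and 42.2% higher.

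The step between stage 23 and 0 dah held the largest change of 1356 of the 2977 genes separated upward (45.5%) and of 904 of the 1755 separated downward (51.5%). Among called genes whose sides overlapped, the shares were 21.3% of 6388 and 20.204% of 6583. Separation itself asks for a move at this step, so these shares describe the genes and are not a test. The step from stage 20 to stage 23 came next, with 708 (23.78%) upward and 524 (29.9%) downward, and the step from 4 to 8 dah was the largest for 12 and 7 genes. The median share of a gene's whole move that fell between stage 23 and 0 dah was 35.2% upward and 37.2% downward.

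**Figure D4:**
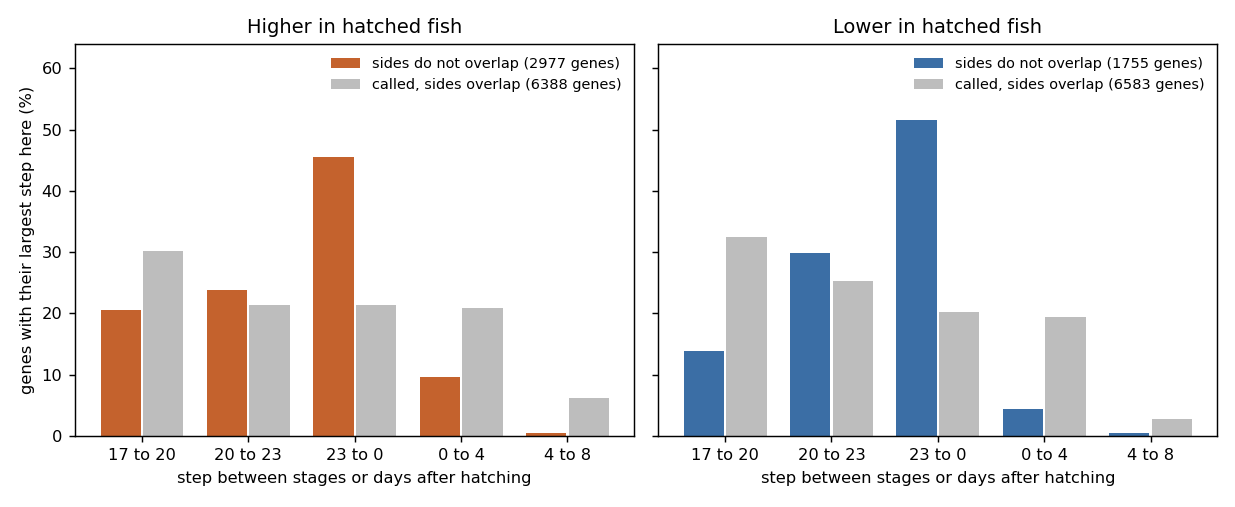
Bars give the percent of genes whose largest change in mean log2 level lay in each step between successive stages, for genes higher (left) and lower (right) in hatched fish. The steps cover unequal times. Separated genes (coloured) had their largest step between stage 23 and 0 dah in 45.5% and 51.5% of cases, against 21.3% and 20.204% of called genes whose sides overlap (grey).

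A net change under 0.5 on the log2 scale between the end stages of each side, stages 17 and 23 and 0 and 8 dah, held for 342 of the genes separated upward (11.5%) and 363 of those separated downward (20.68%). A further 995 upward and 976 downward moved the same way within the embryos only, 391 and 82 within the hatched fish only, and 1159 and 320 within both. The examples that follow were chosen after their values were seen, as the genes of this kind with the largest steps. Stage 20 and 4 dah were not part of the criterion. *fkbp5*, a co-chaperone gene of steroid receptors that responds to glucocorticoids in mammals, had stage medians of 0.786, 0.363 and 0.985 CPM at stages 17, 20 and 23 and 37.1, 54 and 49.5 CPM at 0, 4 and 8 dah. All 18 hatched fish lay between 22.1 and 101 CPM, against 0.235 to 1.49 CPM in embryos (log2 fold change 6.04 ± 0.26, adjusted p = 8.07e-20).

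Among the other examples that stepped up, *gabrr1*, *cnga3a* and *reep6* are known from the retina. *gabrr1*, a GABA receptor subunit gene, had 9.09, 14.6 and 20.46 CPM in hatched fish, against 0.208, 0.492 and 1.173 CPM in embryos. *cnga3a*, the cone cyclic nucleotide-gated channel gene, had 17.2, 25.2 and 30.1 CPM in hatched fish, against 0.85, 1.57 and 2.46 CPM in embryos, and *reep6* 7.96, 12.2 and 14.2 CPM in hatched fish, against 0, 0.0427 and 0.273 CPM in embryos. Their levels within the hatched fish were even, for *cnga3a* at medians of 23.38, 25.7 and 27.2 CPM at 0, 4 and 8 dah. Others were *tm6sf2*, a lipid metabolism gene, at 15.13, 30.1 and 39.9 CPM in hatched fish, against 0, 0.868 and 1.99 CPM in embryos, and the bicarbonate transporter gene *slc4a5a* at 7.66, 14.1 and 19.7 CPM in hatched fish, against 0.0554, 0.257 and 0.786 CPM in embryos.

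Genes with little net change on each side that stepped down had smaller fold changes, and not all were level within the embryos. *tet3*, an enzyme gene that oxidizes methylated cytosine, had stage medians of 372, 398 and 350.0 CPM at stages 17, 20 and 23 and 117, 128 and 122 CPM at 0, 4 and 8 dah. The argonaute gene *ago1* had 23.9, 32.2 and 37.3 CPM in hatched fish, against 62.3, 113 and 377 CPM in embryos, with medians of 109, 329.9 and 76.5 CPM at stages 17, 20 and 23. The transcription factor genes *prdm12b* and *pax8* had 1.23, 2.26 and 3.18 CPM and 3.84, 5.47 and 6.38 CPM in hatched fish, against 6.08, 8.94 and 19.5 CPM and 9.92, 15.3 and 18.9 CPM in embryos. *znf292b* had 14.6, 18.5 and 21.3 CPM in hatched fish, against 39.8, 50.8 and 85.9 CPM in embryos, and the doublecortin-like kinase gene *dclk2a* 5.34, 7.49 and 10.25 CPM in hatched fish, against 11, 17.2 and 29.2 CPM in embryos. Log2 fold changes of these 6 genes ranged from -2.45 ± 0.24 (*ago1*) to -1.31 ± 0.11 (*dclk2a*).

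**Figure D5:**
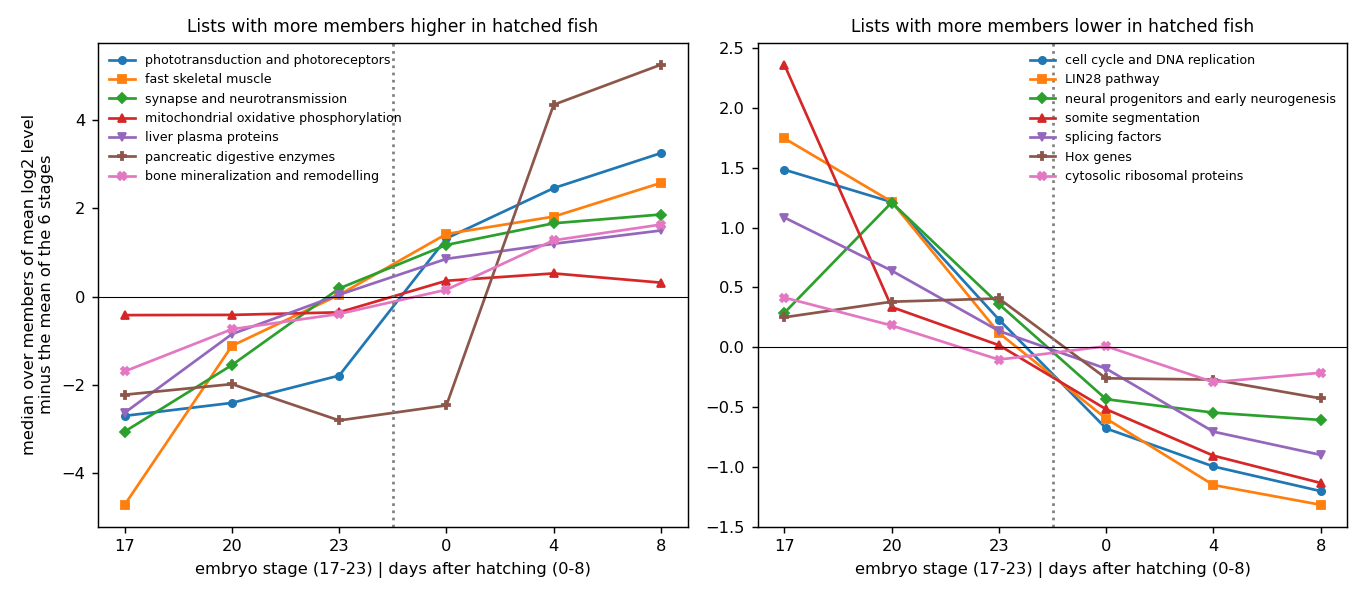
Lines give, for 14 gene lists, the median over tested members of the mean log2 level at each stage, after centring each gene on the mean of its 6 stages, with embryo stage or days after hatching on the x axis. Photoreceptor genes have their steepest rise between stage 23 (-1.79) and 0 dah (1.32) and pancreatic genes between 0 dah (-2.46) and 4 dah (4.35), while fast muscle genes rise most between stages 17 (-4.72) and 20 (-1.11).

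Some of the widest separations belonged to genes with no name in the files or the RefSeq gene table. LOC120835073 had 206, 1128 and 1592 CPM in hatched fish, against 0, 0.97 and 2.25 CPM in embryos (log2 fold change 10.001 ± 0.46, adjusted p = 3.45e-19), and LOC120828268 had 1681, 9643 and 13460.0 CPM in hatched fish, against 0, 11.5 and 80.6 CPM in embryos (log2 fold change 8.44 ± 0.72, adjusted p = 1.49e-12). LOC120827629 had the widest gap of all genes separated downward, at 30.1, 52.7 and 255 CPM in hatched fish, against 2421, 3466 and 5677 CPM in embryos (log2 fold change -5.38 ± 0.31, adjusted p = 1.05e-16). LOC120826191 had 0.298, 0.714 and 8.05 CPM in hatched fish, against 30.8, 212 and 1531 CPM in embryos (log2 fold change -7.86 ± 0.77, adjusted p = 3.68e-11). These 4 were singled out after their values were seen.

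At the edge of separation a small shift of 1 fish decides the class. Just inside it on the upper side, the glutamate receptor gene *grm2b* had 8.99 CPM in its lowest hatched fish, against 8.99 CPM in its highest embryo, and *sod1* and *loxl1* were as close. Just outside it, the lowest hatched fish had 97.1 CPM of *adipor1a*, against 97.2 CPM in the highest embryo, and *bnip3lb* and *lrp2b* were as close. On the lower side *rbms1a*, *ess2* and *zdhhc18a* were just inside and *cep78*, *hip1ra* and *inavab* just outside. The highest hatched fish had 24.8 CPM of *zdhhc18a*, against 24.9 CPM in the lowest embryo.

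The difference between hatched fish and embryos depended on sex in 1 gene, *b3gnt9*, a glycosyltransferase gene, by the interaction term in edgeR, with 204 genes (0.92%) at an unadjusted p under 0.05. The share of 0.92% lies below the threshold of 0.05 itself. This model too held no term for stage, so differences between stages were counted within the spread between fish. The low count therefore does not show that the difference was alike in both sexes. In females *b3gnt9* averaged 2.68 ± 0.72 CPM in hatched fish and 1.19 ± 0.27 CPM in embryos (SD, n = 9 each). In males it averaged 5.72 ± 1.3 CPM in hatched fish and 7.55 ± 1.67 CPM in embryos (SD, n = 9 each). The log2 fold change in males minus that in females was -1.57 ± 0.24 (edgeR adjusted p = 0.00345). With each sex alone, 3955 genes separated upward and 2602 downward in females, and 4040 and 2675 in males. These must include every gene separated over both sexes, since they use a part of the same fish.

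The test took the 18 fish of a side as replicates, although they came from 3 stages. The model held no term for stage, so differences between the stages of a side were counted within the spread between fish. The p-values thus treat fish of different ages as replicates, and they do not describe the spread between clutches. At the level of stages, 3 against 3 cannot reach an exact two-sided p below 0.1.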

How the data were processed

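The authors trimmed reads with Trimmomatic 0.39, aligned them to GAculeatus_UGA_version5 with HISAT-3N, kept uniquely mapped reads and counted them per gene with HTSeq 2.0.2 against NCBI annotation release 100, with the strand taken into account. The deposited table holds whole-number counts of 25258 genes. A second deposited table holds a normalized signal, in which the authors scaled the counts by DESeq2 size factors, for the 24388 genes that the authors kept, and was used here only as an alternative scaling. Each column was matched to its fish by its library name, and the labels of that fish gave its stage, sex and replicate.

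Hatched fish were tested against embryos with edgeR 4.0.16 (R 4.3.3, limma 3.58.1): TMM, filterByExpr with the 12 stage-and-sex groups, glmQLFit and glmQLFTest with sex as covariate, over all 36 fish. Of the counted genes 22168 passed the filter, and an adjusted p under 0.05 was called. Separated genes were those whose lowest fish of a side lay above the highest of the other in TMM-scaled CPM, which is a description and not a test. The steps were tested on simulated data in which all fish of a side shared a common mean for each gene. Differences between the stages of a side were not simulated, so the p-values under such differences were not tested.

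Genes named were, in each direction, the 12 with the widest gap and the 8 further ones with the largest fold, among separated genes with a mean of at least 10 CPM on the higher side and a gene name, the 3 largest folds among called members of each list, and the 3 genes just inside and outside separation on each side. Every other gene named, such as members that went against their list or were not called, was chosen after its values were seen. The comparison, the 23 lists and the tests were chosen with earlier results of these data known, so no list is independent evidence. Of 8571 tested genes listed by a LOC number, 1687 took a symbol from the RefSeq gene table of assembly fGasAcu3.hap1.1, used for names only. Where 2 genes share a symbol (*pde6hb*, *ccnb2*, *il1b*, *hoxb13a*) reads of the copies may be split. No sequence was read. Alternatives were DESeq2 1.42.0, other scalings, filters and models, sets of stages, each sex alone and each fish left out. Some genes that the naming rule selects are not reported here.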

Additional observations from a re-analysis of the deposited data

Results flagged for a closer look

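The difference between hatched fish and embryos of *b3gnt9* was not the same in males and females, by the test of the interaction of sex and phase (male minus female -1.57 on the log2 scale). Hatched females lay between 1.8 and 3.76 CPM, against 0.983 to 1.67 CPM in female embryos. Hatched males lay between 3.88 and 8.42 CPM, against 5.14 to 9.79 CPM in male embryos. The sides were thus separate in females and overlapped in males, and males had more than females on both sides. With DESeq2 the number of genes whose difference depended on sex was 10.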

How the results depend on the processing

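Over all alternatives, 5807 log2 fold changes of named genes kept their direction and call, 8 lost the call and 1 reversed: *xbp1* had a log2 fold change of 0.15 when stage 23 was compared with 0 dah alone. Of the settings 36 left out a single fish and 11 did not, and most genes were named for large differences in these data. Such agreement was therefore likely beforehand. The exceptions came from stage 23 against 0 dah and from the model with 12 groups. The counts of genes called stayed within 1.5 times of the main ones under every alternative, at 10614 higher and 8794 lower with the 12 groups of stage and sex as the model and 10429 and 8263 with DESeq2. The count of genes separated downward moved more: it was 2683 without stage 17 and 8 dah, 3849 for stage 23 against 0 dah and 2675 in males alone, each with fewer fish to hold apart. A margin of 2 times left 743 genes upward and 15 downward. The number of genes whose difference depended on sex was 10 with DESeq2. Leaving out each fish in turn gave 9273 to 9523 genes called higher, 8273 to 8439 called lower, 2953 to 3156 separated upward and 1761 to 1873 separated downward. Without 8 dah, 8002 genes were called higher and 8614 lower (48.2% of the calls higher, against 52.9%), and 51.3% of the separated genes were higher in hatched fish. The deviations of fish with the same replicate number had a mean correlation of 0.0149 over 198 pairs, 22 of them over 0.1, against -0.00724 over 396 other pairs. Within a stage the mean was 0.105 over 18 pairs, 7 of them over 0.1, against -0.0510 over 36 other pairs. Not every pair was over 0.1, so the numbers were not taken as pairing the fish, but a pairing within a stage is not excluded by this. The fit with a replicate block called 9305 genes higher and 8297 lower. Its block joined a number over all stages, so it could not take up a pairing within a stage. Genes with few reads in the 18 embryos, such as *scpp9* and *cd8a*, are limited by depth.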

Other observations

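The count of erythroid genes that fell depended on stage 17. Of 26 tested haemoglobin and erythroid genes 5 were higher and 11 lower in hatched fish, against 42.2% and 37.6% of all genes tested. Of the list 2 were separated downward, against 7.92% of all genes tested. The median log2 fold change of the list was -0.51, and -0.01 with the 12 groups of stage and sex as the model. Without stage 17, 17 were lower and 5 higher, with 7 separated downward and 1 upward. Over all 22029 genes then tested, 7995 were lower and 9171 higher, with 2056 separated downward and 3193 upward. For stage 23 against 0 dah 14 were lower and 6 higher, with 8 separated downward and 1 upward. Over all 21386 genes then tested, 6332 were lower and 6675 higher, with 3849 separated downward and 4120 upward. The red cell anion exchanger gene *slc4a1a* had stage medians of 3.17, 486 and 518 CPM at stages 17, 20 and 23 and 134, 30.2 and 72.2 CPM at 0, 4 and 8 dah, so that stage 17 lay below every later stage, and its sides overlapped (log2 fold change -2.05 ± 0.62, adjusted p = 0.00306 by edgeR). The mitochondrial iron importer gene *slc25a37* peaked at stage 20, at 115 CPM (log2 fold change -2.13 ± 0.35, adjusted p = 1.53e-06 by edgeR). *hemgn*, a nuclear protein gene of blood precursors, was separated downward, with 5.83, 11.5 and 24.5 CPM in hatched fish, against 33.3, 68.4 and 97.6 CPM in embryos (log2 fold change -2.37 ± 0.18, adjusted p = 7.72e-14 by edgeR).

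Thyroid hormone genes were higher in 16 of 22 tested members (42.2% over all genes) and lower in 4 (37.6%). Their median log2 fold change was 1.29. Of the list 4 were separated upward and 2 downward, against 13.4% and 7.92% of all genes tested. Thyroglobulin (*tg*), the precursor of the hormone, had 0.585, 5.7 and 22 CPM in hatched fish, against 0, 0.395 and 0.887 CPM in embryos (log2 fold change 4.11 ± 0.42, adjusted p = 7.74e-11 by edgeR). The hydrogen peroxide-producing oxidase gene *duox* had 0.118, 2.4 and 13 CPM in hatched fish, against 0, 0.189 and 0.514 CPM in embryos, and the thyrotropin subunit gene *tshba* had 0.244, 0.782 and 1.3 CPM in hatched fish, against 0, 0.0538 and 0.263 CPM in embryos. The members separated downward were *hhex* (-2.09 ± 0.22) and *pax8* (-1.50 ± 0.10), transcription factor genes of early endoderm and of the thyroid primordium. Of the hatching gland list only 3 members were tested: *klf17* was separated downward with 2.54, 4.15 and 5.11 CPM in hatched fish, against 6.31, 10.7 and 25.7 CPM in embryos (log2 fold change -1.59 ± 0.18, adjusted p = 7.4e-10 by edgeR), *xbp1* was lower without separation (-0.45 ± 0.10), and *agr2* was not called.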
